A study of Homo sapiens with 4 samples.

Results

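Chromatin loops held by the cohesin subunit SMC1 were compared between cells given either of 2 drugs that slow DNA replication and cells given either of the matching vehicles. All 4 libraries of the study entered the comparison, aphidicolin (APH) and hydroxyurea (HU) as the drug group of 2, and dimethyl sulfoxide (DMSO) and water (H2O) as the vehicle group of 2. The features compared were the 9529 loops, of 41846 listed in any library, that all 4 libraries listed between the same pair of 5 kb bins. The cells were GM12878, a B lymphoblastoid line made by Epstein-Barr virus transformation, and every library was labelled as that line in its cell line field, although the sample titles name another lymphoblastoid line. Aphidicolin was given at 0.4 µM and hydroxyurea at 0.2 mM, each for 18 h, with DMSO the vehicle of aphidicolin and water that of hydroxyurea. SMC1 contacts were measured by HiChIP, which joins ligation of neighbouring DNA ends in fixed nuclei with immunoprecipitation of a bound protein. Each treatment has 1 library, so the spread behind every test is that between the drugs and that between the vehicles, and it holds no replicate of any treatment. In these bulk samples, more contacts per cell and a larger share of cells with the contact cannot be told apart.

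Cohesin is a ring that includes SMC1 and SMC3. It loads onto chromatin and enlarges a loop of DNA until it is released or meets a barrier, most often CTCF bound in a fixed orientation, so that pairs of barriers appear as the 2 anchors of a loop. Aphidicolin blocks replicative DNA polymerases and hydroxyurea blocks ribonucleotide reductase, which makes deoxynucleotides. At low doses both slow replication forks and are used to provoke replication stress.

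The lists give whole contact counts, with at least 12 for each listed loop. Over the 9529 loops the libraries held 300320 counts in DMSO, 325634 in H2O, 376948 in APH and 322048 in HU, which is 51.4% to 66.8% of all counts listed in a library. Counts below are scaled to equal totals over these loops, and the full sequencing depth is unknown. Because a loop had to be listed 4 times, loops with a count under 12 in any library are absent, and a further 2380 loops were listed in both drug libraries and neither vehicle library against 849 in both vehicles and neither drug. For the cell type, shared loops were found on 5 of 10 B lymphocyte markers (MS4A1, CD79A, EBF1, POU2AF1 and BLK) and also on 4 of 10 T lymphocyte, 3 of 10 epithelial, 3 of 10 fibroblast and 2 of 10 myeloid or erythroid markers. Loops at a gene do not show that it is expressed, so this check does not settle the cell type. Summed scaled counts of the B lymphocyte markers were 655 in DMSO, 692 in H2O, 609 in APH and 593 in HU, lower in both drug libraries, and those of the fibroblast markers were 547, 518, 589 and 600, higher in both. Those of the epithelial markers were 471, 508, 477 and 447, of the T lymphocyte markers 468, 495, 497 and 458 and of the myeloid or erythroid markers 104, 86.5, 107 and 131; the first 2 overlapped between the groups and the last was higher in both drug libraries. The part of these marker loops in the results below was not tested.

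Contacts in both drug libraries leaned to short loops. The values of both drugs lay above both vehicles at 1899 of 9529 loops (19.9%) and below both at 2115 (22.2%), together 42.1%, a pattern called groups apart here. Scaled by the total over all listed loops, these numbers were 732 and 3323. For 2 against 2 libraries the smallest exact two-sided permutation p is 0.333. Exchangeable library values would thus leave groups apart at about that share of loops, anchors or genes. The shares of groups apart here and below are to be read against it, and being apart is no test. Loops apart on the high side had a median span of 80 kb and those apart on the low side 145 kb, beside 115 kb for loops whose groups overlapped. Among loops of 20 to 30 kb, 34.8% were apart on the high side and 12.9% on the low side. The balance turned with distance, and among loops of 500 kb or more only 6.25% were high while 37.1% were low.

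**Figure D1:**
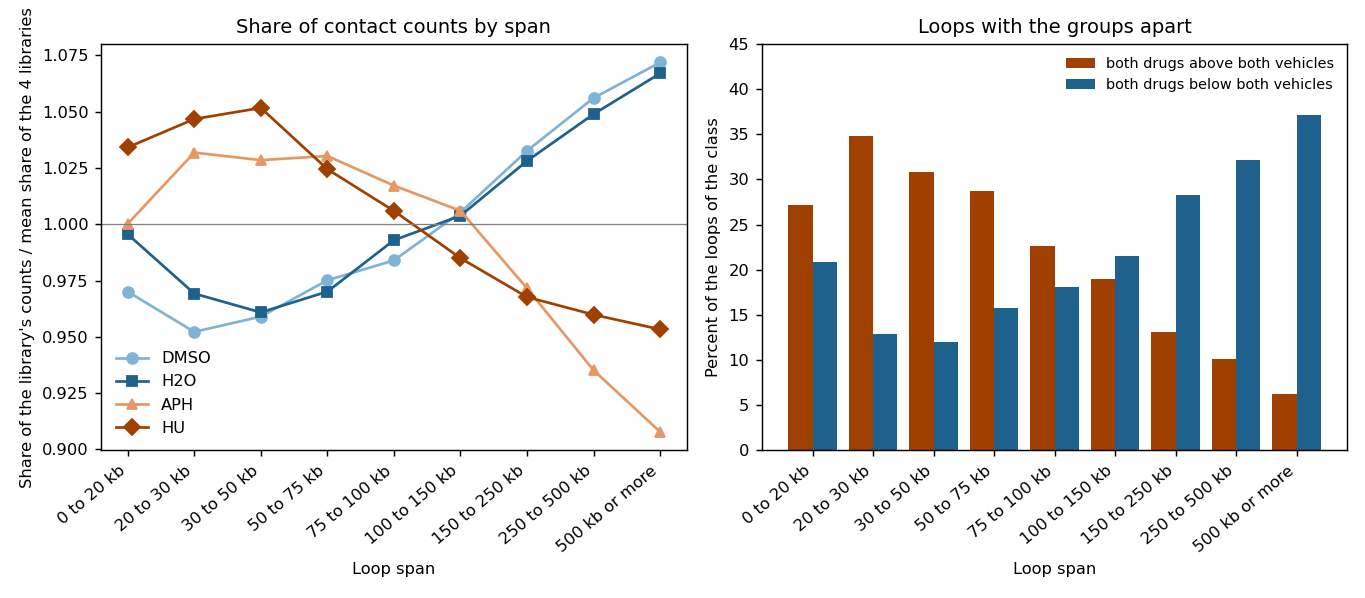
Loops grouped by span (x axis). Left, the share of each library's shared-loop counts in a span class divided by the mean share of the 4 libraries, 1 line per library. Right, the percent of loops of a class with both drugs above both vehicles or below them. Drug libraries lie above vehicle libraries up to 100 kb and below them from 150 kb, and the low-side bar reaches 37.1% in the longest class.

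The same turn was seen in the counts of each library. Loops of 30 to 50 kb took 11.6% of the counts in DMSO, 11.6% in H2O, 12.4% in APH and 12.7% in HU. Loops of 250 to 500 kb took 10.8%, 10.7%, 9.58% and 9.83% in the same order. In 8 of the 9 span classes the groups did not overlap, and in the class of 100 to 150 kb, where the shares were 20.07%, 20.04%, 20.08% and 19.66%, they did. The mean span per contact was 135.6 kb in DMSO and 135.2 kb in H2O, and 128.7 kb in APH and 129.5 kb in HU.

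Loops of at least 500 kb were set against loops under 100 kb by the median log2 scaled count of each class relative to the mean of the 4 libraries. This long minus short value was 0.13 in DMSO, 0.13 in H2O, -0.19 in APH and -0.10 in HU. The vehicles almost coincided, and both drugs lay below them. The drugs had a mean of -0.14 with a standard deviation of 0.060, the vehicles a mean of 0.13 with a standard deviation of 0.00013, and the exact two-sided permutation p of these library values was 0.333, the smallest that 2 against 2 libraries can give. Taken loop by loop, the median log2 difference of drugs minus vehicles over the long loops minus that over the short loops was -0.26, and -0.19 when counts were divided by the expected count that the authors deposited for each loop.

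Loops were also grouped by how many loops shared their busier anchor. Among loops of 100 to 250 kb, those with an anchor shared by 6 or more loops were on the low side in 30.9% and on the high side in 9.47% of 359 cases. Those whose busier anchor held 1 or 2 loops were low in 21.5% and high in 20.1% of 1713 cases. From 250 to 500 kb the difference was smaller, with 33.3% low and 8.70% high among 69 busy ones and 28.8% low and 12.2% high among 663 sparse ones. Under 50 kb the high side held 31.3% of 48 loops with such a busy anchor and 31.2% of 747 sparse ones. The 7425 loops with no transcription start site at an anchor were high in 20.2% and low in 22.6%, and the 164 with start sites at both anchors in 17.1% and 22.0%. Loops with no protein-coding gene at either anchor were high in 23.03% and low in 20.5% of 1841 cases, those with a gene at 1 anchor in 19.5% and 23.4% of 4148, and those with a gene at both in 18.8% and 21.7% of 3540. These start-site and gene shares pool all spans. Median spans were 120 and 70 kb for the start-site groups and 125, 120 and 95 kb for the gene groups. At 50 to 100 kb, loops with no gene were high in 31.2% and low in 12.4%, and those with a gene at both in 21.9% and 17.8%. At 100 to 250 kb the shares were 20.1% and 22.7% with no gene, and 14.3% and 24.8% with a gene at both. These loops share anchors and libraries, so the shares are descriptions and carry no test.

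By chromosome the groups differed little. Chromosome 11 had the largest difference towards the drugs in its share of counts, at 6.28% in DMSO, 6.23% in H2O, 6.43% in APH and 6.59% in HU. Chromosome 2 had 6.17%, 6.13%, 5.99% and 5.91% in the same order. Chromosomes 11, 12, 15, 19 and 20 were high in both drugs, chromosomes 2, 3, 5, 6 and 8 were low in both, and on the other chromosomes the groups overlapped. Median loop spans were 110, 95, 115, 75 and 112.5 kb on the high ones and 140, 125, 115, 140 and 145 kb on the low ones. The part of span in these differences was not tested.

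Tested loop by loop with the edgeR quasi-likelihood test and Benjamini-Hochberg adjustment over all 9529 loops, 22 loops (0.231%) passed an adjusted p of 0.05. Of these, 19 were higher with the drugs (0.199% of loops) and 3 were lower (0.0315%), and 1023 had an unadjusted p under 0.05. The 19 higher loops spanned 15 to 130 kb with a median of 45 kb, and 17 of them spanned less than 100 kb. The 3 lower loops spanned 170, 235 and 415 kb. For a typical loop the standard error of the log2 difference was 0.26, and the median absolute difference was 0.23 between APH and HU and 0.23 between H2O and DMSO, so that single loops were measured with little precision. The test drew its spread from all loops, with a median quasi-dispersion of 0.91, below the value of 1 that counting error alone gives; with a floor of 1, chosen after seeing the data, 12 of the 22 calls were kept.

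**Figure D2:**
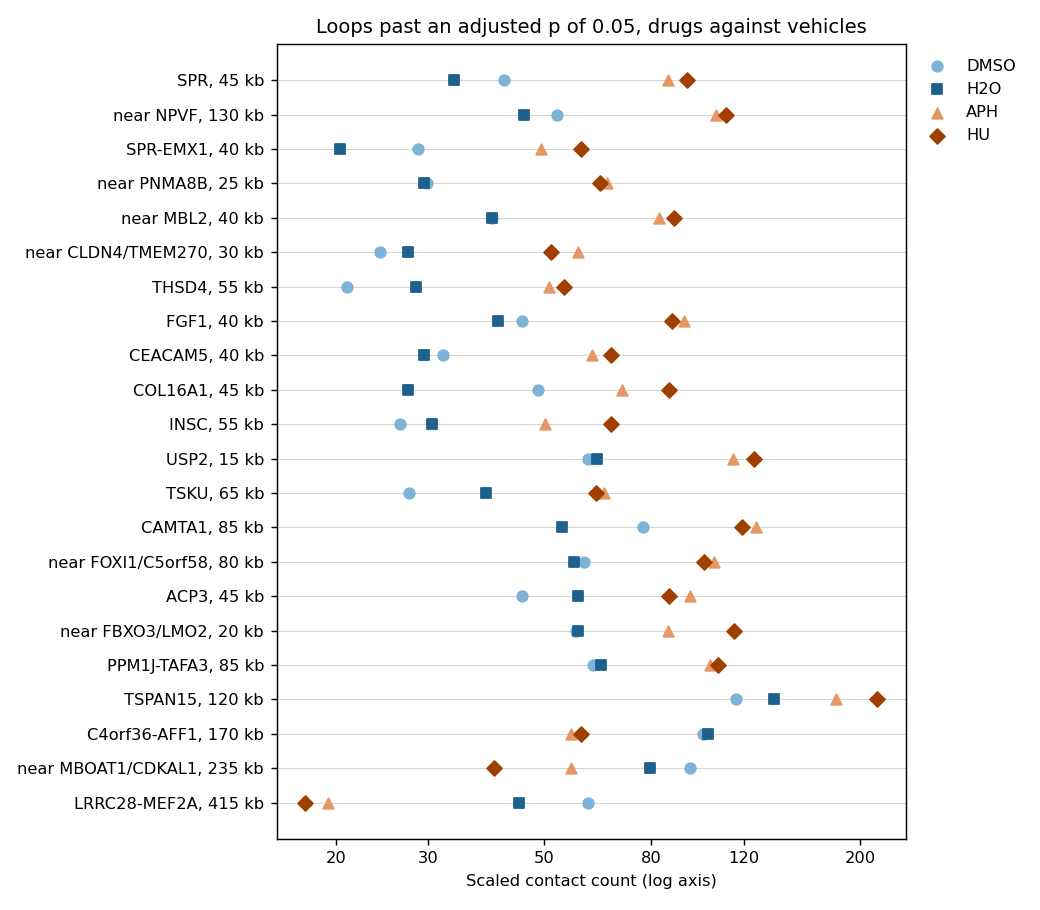
Scaled contact counts (x axis, log scale) of the 22 loops past an adjusted p of 0.05, 1 row per loop with its genes or nearest genes and its span, 1 symbol per library. The 19 upper loops have both drugs to the right of both vehicles, and the 3 lower ones, of 170 to 415 kb, have them to the left.

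The loop with the highest difference joined SPR, which encodes sepiapterin reductase of tetrahydrobiopterin synthesis, to a bin 0.1 kb from EMX1, a homeobox gene of the developing forebrain. Its anchors lie on hg38 at chr2:72890001-72895000, on the SPR gene body, and chr2:72935001-72940000, outside genes. Scaled counts were 41.9 in DMSO, 33.6 in H2O, 86.1 in APH and 93.6 in HU. Both drug libraries stood far above both vehicles, at 2.38-fold, a log2 difference of 1.25 ± 0.19 (standard error; edgeR quasi-likelihood test, Benjamini-Hochberg adjusted p = 0.0012). The neighbouring loop from the same SPR bin into EMX1 itself (chr2:72930001-72935000), 40 kb long, had 28.7, 20.3, 49.2 and 58.6 in the same order and rose by 1.13 ± 0.24 (adjusted p = 0.034). The 4 longer loops of that SPR bin had overlapping groups. The loop of 80 kb had scaled counts of 43.0 in DMSO, 32.6 in H2O, 40.4 in APH and 50.4 in HU, and that of 270 kb had 15.4, 17.3, 15.8 and 13.4.

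A loop of 130 kb on chromosome 7 had both anchors outside genes, at chr7:25255001-25260000 and chr7:25385001-25390000, and the nearest gene was NPVF, which encodes a neuropeptide precursor. It had scaled counts of 52.9 in DMSO, 45.8 in H2O, 106 in APH and 111 in HU. The groups did not come near each other, and the log2 difference was 1.14 ± 0.17 (edgeR quasi-likelihood, Benjamini-Hochberg adjusted p = 0.0012). It was the one higher loop of over 120 kb.

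FGF1, which encodes a fibroblast growth factor, held a loop of 40 kb within its own gene body, from chr5:142655001-142660000 to chr5:142695001-142700000, where a start site of the gene lies. The scaled counts were 45.2 in DMSO, 40.7 in H2O, 92.3 in APH and 87.4 in HU. Each drug library had about the same value, at 2.10-fold over the vehicles (log2 difference 1.07 ± 0.18, edgeR quasi-likelihood, Benjamini-Hochberg adjusted p = 0.0038). From the same start site a loop of 85 kb had 40.8, 37.6, 49.2 and 55.5, apart on the high side without passing the test, and a loop of 230 kb from the inner bin had 13.2, 16.3, 14.9 and 16.5, with overlapping groups.

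CEACAM5, an adhesion molecule of gut epithelium, had its start site in the anchor of a loop of 40 kb that ended 5.5 kb from its relative CEACAM6 (chr19:41705001-41710000 and chr19:41745001-41750000). Its scaled counts of 32.0 in DMSO, 29.5 in H2O, 61.5 in APH and 66.9 in HU gave a log2 difference of 1.06 ± 0.21 (edgeR quasi-likelihood, Benjamini-Hochberg adjusted p = 0.020). CAMTA1, a calmodulin-binding transcription activator, held a loop of 85 kb between an internal start site at chr1:7665001-7670000 and chr1:7750001-7755000, with 77.2, 53.9, 127 and 119 in the same order (0.92 ± 0.17, adjusted p = 0.0088). The fourth loop with a start site at an anchor joined the bin of TAFA3, a secreted chemokine-like protein, and its neighbour PPM1J to a bin 85 kb away, at 61.8 in DMSO, 64.1 in H2O, 104 in APH and 107 in HU (0.74 ± 0.16, adjusted p = 0.044). In all 4 loops both drugs lay above both vehicles. Among the 4, the vehicles lay furthest apart at CAMTA1, with a log2 difference of H2O minus DMSO of -0.52, beside 0.085 for APH minus HU.

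The promoters of these 4 genes are shown because they are the only start sites in the anchors of the 22 loops; each is RefSeq sequence of GRCh38.p14, 280 bases read in the direction of the gene and ending just past the start site. They lie at chr5:142698041-142698320 (minus strand), chr19:41708376-41708655, chr1:7669480-7669759 and chr1:112718655-112718934 (plus strand). Capitals mark a match to the CTCF core motif.
FGF1: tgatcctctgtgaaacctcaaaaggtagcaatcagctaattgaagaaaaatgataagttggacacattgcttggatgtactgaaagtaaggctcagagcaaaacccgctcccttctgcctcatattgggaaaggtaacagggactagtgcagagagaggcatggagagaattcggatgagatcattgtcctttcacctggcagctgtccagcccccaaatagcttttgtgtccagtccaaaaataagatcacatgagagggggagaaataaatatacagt
CEACAM5: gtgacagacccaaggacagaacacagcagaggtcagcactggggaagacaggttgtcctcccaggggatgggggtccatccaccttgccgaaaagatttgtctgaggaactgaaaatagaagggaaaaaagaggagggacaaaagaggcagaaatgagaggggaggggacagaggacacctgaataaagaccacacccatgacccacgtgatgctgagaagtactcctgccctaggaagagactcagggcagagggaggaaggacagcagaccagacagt
CAMTA1: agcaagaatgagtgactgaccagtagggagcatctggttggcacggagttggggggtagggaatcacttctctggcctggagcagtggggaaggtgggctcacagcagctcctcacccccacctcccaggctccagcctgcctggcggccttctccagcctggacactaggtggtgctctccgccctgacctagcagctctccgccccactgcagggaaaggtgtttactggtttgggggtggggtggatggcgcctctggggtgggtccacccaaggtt
TAFA3: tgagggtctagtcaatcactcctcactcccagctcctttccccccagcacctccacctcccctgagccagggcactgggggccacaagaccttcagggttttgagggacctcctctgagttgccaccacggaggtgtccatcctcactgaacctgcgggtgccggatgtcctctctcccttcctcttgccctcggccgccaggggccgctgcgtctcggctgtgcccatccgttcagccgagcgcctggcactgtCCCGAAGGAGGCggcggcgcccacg
Of the 6 motifs searched on both strands of such windows, the CTCF core was the one found, at TAFA3. The others were AP-1 (TGANTCA), NF-kB (GGANNTTCC), ETS (CCGGAAGT), CRE (TGACGTCA) and NRF1 (GCATGCGC). The CTCF core occurred in 7.20% of 22034 promoters, in 12.1% of 1950 in anchors of shared loops, in 12.8% of 483 at loops apart on the high side and in 14.7% of 545 at loops apart on the low side. A match is a run of letters and no measure of binding.

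The other higher loops lay inside or between genes with no start site in their anchors. Inside USP2, a ubiquitin protease, a loop of 15 kb had scaled counts of 60.7 in DMSO, 63.1 in H2O, 114 in APH and 125 in HU (log2 difference 0.95 ± 0.16, edgeR quasi-likelihood, Benjamini-Hochberg adjusted p = 0.0038). Inside THSD4, which encodes an extracellular matrix protein, a loop of 55 kb had 21.0, 28.5, 51.0 and 54.5. COL16A1, a collagen gene, had 48.5, 27.5, 70.3 and 86.4 at a loop of 45 kb. The vehicles of COL16A1 lay further apart than those of the other loops, and its log2 difference was 1.05 with all libraries and 0.68 without H2O, when it no longer passed (edgeR quasi-likelihood, Benjamini-Hochberg adjusted p = 0.31).

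Further higher loops lay between genes. A loop of 30 kb from 1.0 kb beside CLDN4, a claudin of epithelial tight junctions, to 0.8 kb beside TMEM270 had scaled counts of 24.3 in DMSO, 27.5 in H2O, 58.0 in APH and 51.4 in HU. A loop of 40 kb, 7.2 and 20.4 kb from MBL2, the mannose-binding lectin of the liver, had 39.7, 39.7, 82.6 and 88.5, and one of 80 kb beginning 0.9 kb from FOXI1, a forkhead factor, had 59.6, 57.0, 105 and 101. At MBL2 and FOXI1 the vehicles nearly coincided, with both drugs well above them.

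The loop of 120 kb from TSPAN15, a tetraspanin, to 1.4 kb from FAM241B was the most heavily counted of the 22, with scaled counts of 116 in DMSO, 137 in H2O, 180.1 in APH and 216 in HU. Its log2 difference of 0.63 ± 0.14 (edgeR quasi-likelihood, Benjamini-Hochberg adjusted p = 0.049) turned to -0.10 relative to the deposited expected count. That expected count was 5.20 in DMSO, 4.96 in H2O, 10.8 in APH and 8.05 in HU. The remaining higher loops, at ACP3, INSC, TSKU, near PNMA8B and between FBXO3 and LMO2, had log2 differences of 0.79 to 1.13.

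Lower with both drugs was a loop of 415 kb between LRRC28, a gene of leucine-rich repeats, and MEF2A, which encodes a transcription factor of muscle and of lymphocyte signalling. Its anchors are chr15:99285001-99290000, on LRRC28, and chr15:99700001-99705000, on MEF2A. Raw counts were 55 in DMSO, 44 in H2O, 22 in APH and 17 in HU, and scaled counts 60.7, 44.8, 19.3 and 17.5. Both drugs lay far below both vehicles, at 0.354 of the vehicle value (log2 difference -1.50 ± 0.26, edgeR quasi-likelihood, Benjamini-Hochberg adjusted p = 0.0039). Of the 12 alternative settings, 11 kept the call, the exception being DESeq2.

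Another loop from the same LRRC28 bin to the bin after it, 420 kb long, had scaled counts of 21.0 in DMSO, 27.5 in H2O, 14.9 in APH and 15.4 in HU. The other loops of MEF2A, of 55 and 190 kb, had overlapping groups, with 60.7, 63.1, 63.3 and 50.4 at the shorter one. The lower contact of MEF2A was measured at its loops to LRRC28.

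A loop of 170 kb between C4orf36 and AFF1, a subunit of a transcription elongation complex, had scaled counts of 100 in DMSO, 103 in H2O, 56.2 in APH and 58.6 in HU (log2 difference -0.82 ± 0.16, edgeR quasi-likelihood, Benjamini-Hochberg adjusted p = 0.020). The last lower loop, of 235 kb, ran from between genes to 4.5 kb from CDKAL1, a tRNA-modifying enzyme, with 94.9, 79.3, 56.2 and 40.1 (-0.83 ± 0.19, adjusted p = 0.049). Its vehicles differed more from each other than those at AFF1, and so did its drugs.

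Among lower loops with groups apart, the next in order of p did not pass the loop test. They lay near MAP3K8, a kinase of the NF-kB pathway, between ADHFE1 and MYBL1, at RNF19B, near SUSD6, within SNX25, a sorting nexin, and between ISLR2 and CCDC33. The loop of 115 kb near MAP3K8 had scaled counts of 50.7 in DMSO, 39.7 in H2O, 17.6 in APH and 24.7 in HU (log2 difference -1.10 ± 0.26, edgeR quasi-likelihood, Benjamini-Hochberg adjusted p = 0.069). The other 5 loops had differences from -1.11 to -0.67. In the anchor test given below, the bins at both ends of the loop near MAP3K8 passed (adjusted p = 0.039 for each, edgeR quasi-likelihood, Benjamini-Hochberg). The ADHFE1 bin of the loop to MYBL1 also passed the anchor test (0.041). Each of these sums includes the loop itself, so they are not independent results. In 1 bin of the MAP3K8 loop the sums were 76.1 in DMSO, 63.1 in H2O, 33.4 in APH and 48.3 in HU.

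The calls leaned on how counts were made comparable. The deposited expected counts were higher with the drugs at 18 of the 19 higher loops, with a median log2 difference of 0.37 beside 1.05 for the observed counts. With each count taken relative to it, 5 loops passed, 2 higher and 3 lower, 4 of them among the 22, namely LRRC28 to MEF2A, the loops near NPVF and CDKAL1 and that of INSC. Scaled by the total over all listed loops, which puts the median of all loops at -0.19, 4 passed, 1 higher (SPR to beside EMX1) and 3 lower. Where a library was left out, the one that remained of its group was assumed to vary like those of the other group. Without APH 60 loops passed, 19 of them among the 22, while 16 of the 22 passed without HU, 13 without DMSO and 12 without H2O. Those that passed whichever library was left out were the loops near NPVF, MBL2 and PNMA8B, those of USP2 and FGF1, SPR to beside EMX1 and LRRC28 to MEF2A. No loop passed with DESeq2, which had 153 with an unadjusted p under 0.05.

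Anchors were tested as the sum over all loops of a bin with at least 2 loops. A loop can enter the sums at both of its ends, so called anchors may rest on the same counts. Groups were apart at 48.8% of the 4131 anchors, 22.1% on the high and 26.7% on the low side. Past an adjusted p of 0.05 were 76 anchors (1.84%), 45 higher (1.09%) and 31 lower (0.75%), and 722 had an unadjusted p under 0.05. The median span at the higher anchors was 77.5 kb and at the lower ones 172.5 kb. Leaving out HU gave 0 called anchors, with 536 at an unadjusted p under 0.05, leaving out APH 5, H2O 3 and DMSO 18. DESeq2 gave 0, with 156 at an unadjusted p under 0.05.

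Highest among them was the anchor near MBL2 (chr10:52740001-52745000), with scaled counts of 56.3 in DMSO, 58.0 in H2O, 103 in APH and 118 in HU over 2 loops (log2 difference 0.94 ± 0.16, edgeR quasi-likelihood, Benjamini-Hochberg adjusted p = 0.0020). The anchors beside COL16A1 and inside FGF1 followed, at 0.93 and 0.87. An anchor on IP6K3, a kinase of inositol phosphates found in muscle (chr6:33760001-33765000), had 50.7, 61.0, 84.4 and 121 (0.85 ± 0.18, adjusted p = 0.015), and one near the defensin gene DEFB136 had 36.4, 31.5, 60.6 and 57.6. IP6K3 had no single loop past the test.

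On the low side the anchors on LRRC28 and MEF2A led, at -1.19 and -0.88. An anchor 163.8 kb from ETS1, a transcription factor of lymphocytes, had scaled counts of 81.6 in DMSO, 66.1 in H2O, 47.5 in APH and 31.9 in HU over 2 loops with a median span of 337.5 kb (log2 difference -0.87 ± 0.20, edgeR quasi-likelihood, Benjamini-Hochberg adjusted p = 0.027). Anchors 43.7 kb from CYCS, the gene of cytochrome c, and on METTL8, an RNA methyltransferase, had -0.85 and -0.82. At METTL8 the values were 99.3, 85.4, 50.1 and 54.5, with vehicles and drugs well separated.

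Counts were also summed per gene over the loops with an anchor on its body. Of 3394 genes or groups of genes with the same loops, 9 (0.265%) rose and 2 (0.0589%) fell at an adjusted p of 0.05, together 0.324%, with 564 at an unadjusted p under 0.05. Groups were apart at 47.4%, on the high side at 810 (23.9%) and on the low side at 798 (23.5%). The called genes and those next in order of p were picked with sums apart, so their loops tend to be apart too. Counts of apart loops within them are descriptions, to be read against 19.9% high and 22.2% low over all loops. For EMX1 and CEACAM5 the gene holds 1 loop, so the call repeats that loop's. The loop of EMX1 is also a loop of SPR. The sums of SPR and of LRRC28 are those of the called anchor bin on each gene, so these gene and anchor calls rest on the same counts. No gene passed without APH or without HU, at 487 and 368 with an unadjusted p under 0.05, 47 passed without DMSO and 20 without H2O, and with each drug and its own vehicle as a block none passed, at 544 with an unadjusted p under 0.05.

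**Figure D3:**
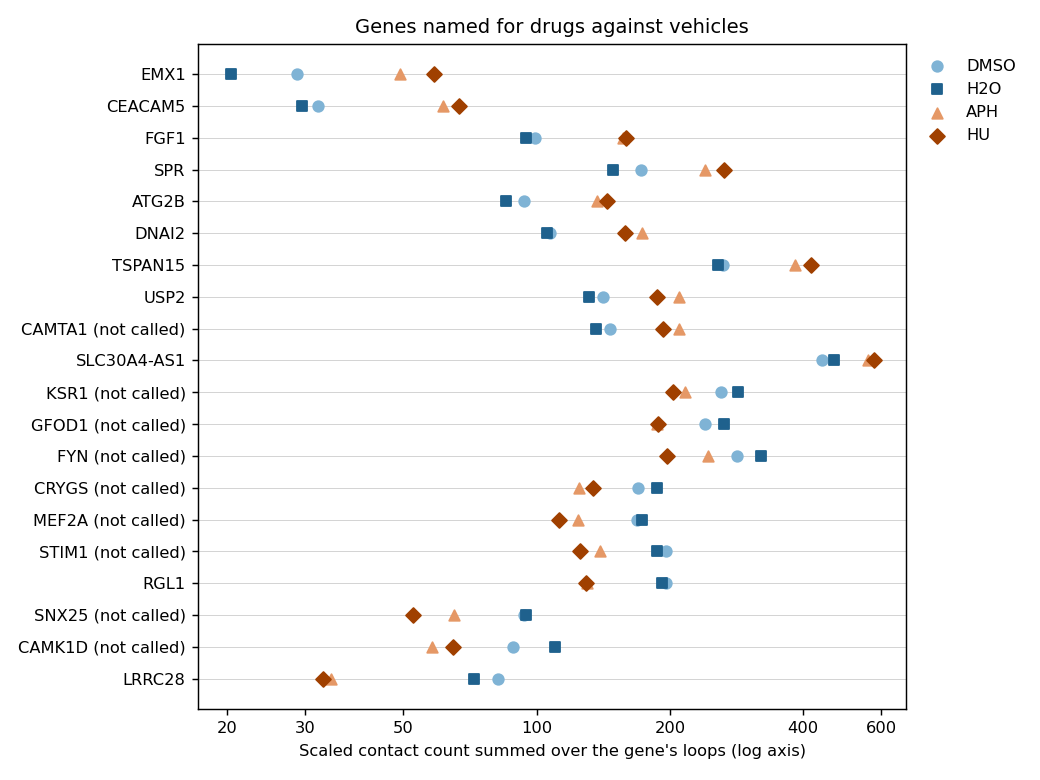
Scaled contact counts summed over each gene's loops (x axis, log scale) for the 11 genes past an adjusted p of 0.05 and the 9 next in order of p, 1 symbol per library. Genes from EMX1 to SLC30A4-AS1 have both drugs to the right of both vehicles, and those from KSR1 to LRRC28 have them to the left.

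TSPAN15 was the gene with the smallest adjusted p. Over 7 loops its scaled counts were 264 in DMSO, 256 in H2O, 384 in APH and 417 in HU. The drug libraries were 1.54-fold higher, a log2 difference of 0.62 ± 0.078 (edgeR quasi-likelihood, Benjamini-Hochberg adjusted p = 0.0032). Of its 7 loops 3 were apart, all on the high side, among them one of 80 kb with 33.1, 25.4, 51.8 and 61.7.

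SPR, with 6 loops, had 172 in DMSO, 149 in H2O, 240 in APH and 264 in HU, and rose by 0.65 ± 0.10 on the log2 scale (edgeR quasi-likelihood, Benjamini-Hochberg adjusted p = 0.016). ATG2B, a lipid transfer protein of autophagy, had 93.8, 85.4, 137 and 144 over 3 loops of 125 to 180 kb, all 3 apart on the high side (0.65 ± 0.13, adjusted p = 0.048). DNAI2, a dynein of motile cilia, had 107, 106, 173 and 158 over 4 loops, of which 3 were apart. At ATG2B and DNAI2 no single loop passed the test. FGF1 and USP2, each with 3 loops of which 1 passed alone, rose by 0.70 and 0.55 (adjusted p = 0.028 and 0.048, edgeR quasi-likelihood, Benjamini-Hochberg). The other USP2 loops had overlapping groups. That of 115 kb had 54.0 in DMSO, 53.9 in H2O, 82.6 in APH and 47.3 in HU, and that of 120 kb 26.5, 14.2, 13.2 and 14.4. Over the alternative settings the log2 difference of USP2 ranged from 0.0025 to 0.68.

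SLC30A4-AS1, an antisense gene of a zinc transporter, had the smallest called rise. Its scaled counts were 442 in DMSO, 470 in H2O, 562 in APH and 578 in HU over 6 loops, a log2 difference of 0.32 ± 0.062 (edgeR quasi-likelihood, Benjamini-Hochberg adjusted p = 0.048). A single loop of 25 kb held most of it, at 225, 262, 341 and 331.

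Of the genes that fell, LRRC28 had 81.6 in DMSO, 72.2 in H2O, 34.3 in APH and 32.9 in HU over its 2 loops (log2 difference -1.19 ± 0.18, edgeR quasi-likelihood, Benjamini-Hochberg adjusted p = 0.012). RGL1, an exchange factor for Ral GTPases, had 196, 192, 130.1 and 129.6 over 4 loops of 70 to 260 kb (-0.58 ± 0.10, adjusted p = 0.032). All 4 loops of RGL1 were apart on the low side, beside 22.2% of all loops, and none passed alone. Each of these loops shares an anchor bin with another of them. Relative to the expected count, LRRC28 was the 1 gene that passed.

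The genes next in order of p did not pass the test. STIM1, the calcium sensor of the endoplasmic reticulum, had scaled counts of 196 in DMSO, 187 in H2O, 139 in APH and 125 in HU, with all 4 of its loops, of 215 to 230 kb, apart on the low side (log2 difference -0.53 ± 0.11, edgeR quasi-likelihood, Benjamini-Hochberg adjusted p = 0.052). FYN, a Src family kinase, had 283, 320, 243 and 197 over 9 loops, 5 of them apart on the low side and none on the high side (-0.45 ± 0.10, adjusted p = 0.068). MEF2A had a difference of -0.53, CAMK1D, a calcium-dependent kinase, -0.70, and KSR1, a scaffold of the MAP kinase pathway, -0.38, with adjusted p of 0.064, 0.068 and 0.081. GFOD1, CRYGS and SNX25 had -0.43, -0.47 and -0.67, with adjusted p of 0.064, 0.079 and 0.079, and on the high side CAMTA1 had 0.52 (147, 136, 210.0 and 193, adjusted p = 0.052, edgeR quasi-likelihood, Benjamini-Hochberg). In the anchor test, the single bins that hold all 4 loops of STIM1 and of GFOD1 passed on the same counts (adjusted p = 0.016 and 0.030, edgeR quasi-likelihood, Benjamini-Hochberg). The STIM1 loops ran to that shared bin from bins next to each other. Bins at both ends of CAMK1D loops (0.041 and 0.035) and a bin on CAMTA1 (0.027) also passed the anchor test, so the outcome for these places depended on the level tested. The CAMK1D bins share a loop, which enters both sums.

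Lists of genes by role are given by counts and medians, beside a median of -0.0026 over all 3394 places. The lists were drawn up with earlier results of these data known, so that their directions are no independent evidence, and TSPAN15 was the only list member past the test. Scaling by the total over all listed loops moves the median of all places to -0.17, and the list medians are read relative to that of all places. Relative to all places, each list's median kept its sign under the scalings tried. Under the other settings 4 lists changed sign. The p53 list was at -0.16 with a mean of at least 24 counts and at -0.10 without APH. The myeloid and erythroid list was at -0.37 with gene ends in place of gene bodies, at -0.01 without HU and at -0.06 without H2O. The cohesin list was at 0.02 without APH, and the T cell list at 0.06 without HU and 0.01 without H2O. Over all places 23.9% were apart on the high side and 23.5% on the low side, and the counts of each list are to be read against these shares.

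**Figure D4:**
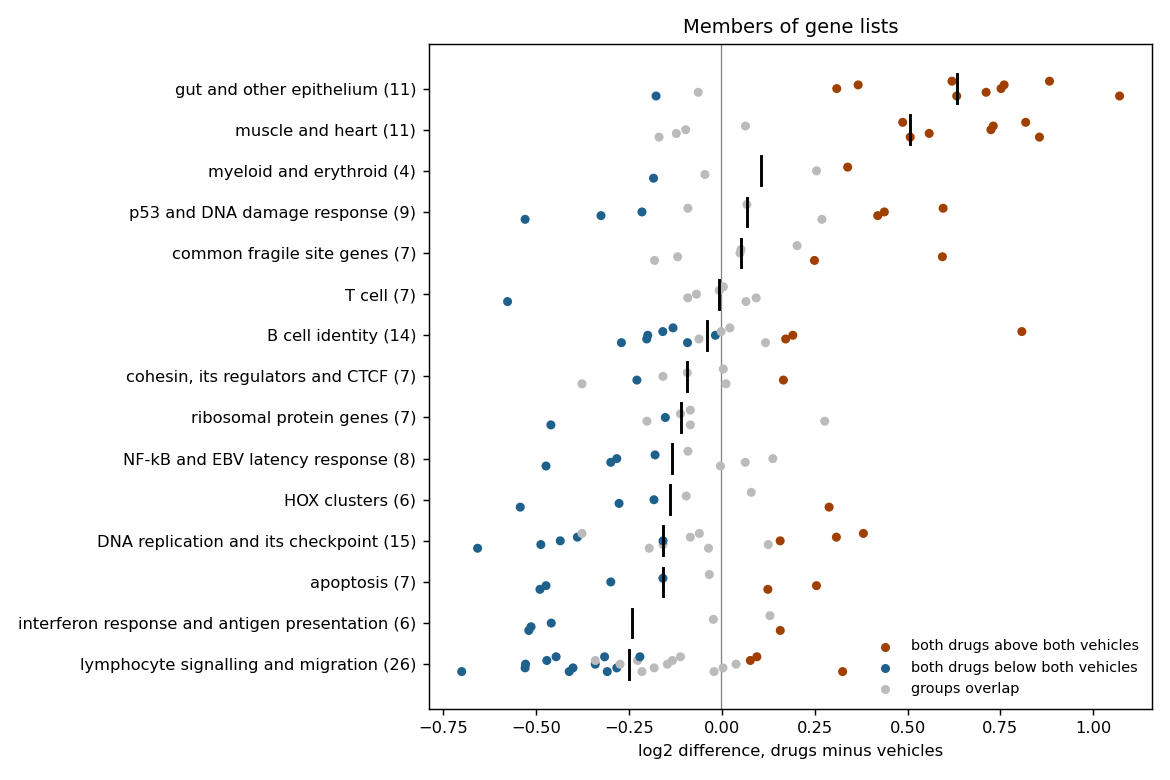
Log2 difference of drugs minus vehicles (x axis) for the tested members of 15 gene lists, with the number tested in brackets. Points are genes, coloured by whether both drugs lay above, below or across the vehicles; black bars are list medians, from -0.25 for lymphocyte signalling to 0.63 for gut and other epithelium, and the grey line is the median of all places.

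Genes of lymphocyte signalling and migration had a median of -0.25, with 12 of 26 tested members apart on the low side, beside 23.5% of all places, and 3 on the high side, beside 23.9%. CAMK1D was the lowest, and CAMK2D, a calcium-dependent kinase, the highest at 0.33. CCR7, a chemokine receptor that guides lymphocytes to lymph nodes, had 334 in DMSO, 335 in H2O, 276 in APH and 274 in HU (log2 difference -0.28). PRKCB, a protein kinase C of B cell receptor signalling, had 260, 291, 217 and 219 (-0.34). At CCR7 the libraries of a group nearly coincided, at PRKCB the vehicles did not, and neither gene passed the test (adjusted p of 0.10 for each, edgeR quasi-likelihood, Benjamini-Hochberg). Among the 18 members that earlier results had not named, 5 were low and 3 high, with a median of -0.16.

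Genes of gut and other epithelium had a median of 0.63, with 9 of 11 apart on the high side, beside 23.9% of all places, and 1 on the low side. Relative to the expected count their median exceeded that of all places by 0.29. ELF3, an epithelial transcription factor, had 15.4 in DMSO, 17.3 in H2O, 34.3 in APH and 34.97 in HU (log2 difference 1.07, adjusted p = 0.083 by edgeR's quasi-likelihood test with Benjamini-Hochberg adjustment), on few counts. SLC5A1, the intestinal sodium-glucose transporter, had 55.1, 32.6, 79.1 and 81.3, and NECTIN4, an adhesion molecule, 57.4, 54.9, 93.1 and 90.5. CDH1, which encodes E-cadherin, was the low one, at 317, 353, 301 and 291. Of the 5 members not named by earlier results, 3 were high and 1 low, with a median of 0.31.

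Muscle and heart genes had a median of 0.51, with 7 of 11 on the high side, beside 23.9% of all places, and none on the low side. Relative to the expected count their median exceeded that of all places by 0.19. IP6K3 was the highest at 0.85. CASQ2, the cardiac calsequestrin that stores calcium, had scaled counts of 158 in DMSO, 144 in H2O, 205 in APH and 219 in HU (log2 difference 0.49). KCNH2, a cardiac potassium channel, had 50.7, 52.9, 88.8 and 82.3 (0.72). TPM1, a tropomyosin, was the lowest at 82.7, 65.1, 60.6 and 71.0, with overlapping groups. For the 6 members that earlier results had not named the median was -0.02, with 2 high and none low.

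B cell identity genes had a median near 0, with more members apart on the low side than on the high side. Of 14 members 7 were low and 3 high, beside 23.5% and 23.9% of all places, with a median of -0.04. CD38, an ectoenzyme of activated B and plasma cells, was the highest at 32.0 in DMSO, 41.7 in H2O, 54.5 in APH and 77.1 in HU. EBF1, a factor of early B cell fate, was the lowest at -0.27. POU2AF1, a coactivator of octamer factors in B cells, had 272, 292, 241 and 252, and MS4A1, which encodes CD20, had 97.1, 97.7, 96.7 and 95.7, nearly the same in each library.

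The NF-kB and Epstein-Barr virus latency list had 4 of 8 members low, beside 23.5% of all places, and none high, with a median of -0.14. Its lowest member was CFLAR, an inhibitor of death receptor signalling, at -0.47, its highest ICAM1, an adhesion molecule, at 0.14, and it included BCL2, an inhibitor of apoptosis, at 192 in DMSO, 185 in H2O, 149 in APH and 158 in HU. The interferon and antigen presentation list had 3 of 6 low and 1 high, with a median of -0.24, from -0.52 at FAP/IFIH1 to 0.16 at IFI16/PYDC5. CD274, the PD-L1 ligand, had 65.1, 64.1, 36.9 and 58.6. The apoptosis list had 4 of 7 low and 2 high (median -0.16), from -0.49 at BIRC2 to 0.25 at FBXL8/TRADD. Genes joined by a stroke share the same loops.

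Genes of the responses that replication stress is known for were mixed. The p53 and DNA damage list had 3 of 9 on each side, beside 23.9% high and 23.5% low over all places, with a median of 0.07, the lowest being ZMAT3 at -0.53. CDKN1A, the p53 target that halts the cell cycle, had 277 in DMSO, 318 in H2O, 266 in APH and 206 in HU (log2 difference -0.33, adjusted p = 0.15 by edgeR's quasi-likelihood test with Benjamini-Hochberg adjustment), while BTG2, another p53 target, had 52.9, 45.8, 72.9 and 57.6 (0.42). DNA replication and its checkpoint had 5 of 15 low and 3 high, beside the same shares, with a median of -0.16, the highest being ATRIP/SHISA5/TREX1 at 0.38 and the lowest being TLK1, a kinase of chromatin assembly, at 89.3, 60.0, 43.9 and 50.4.

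Common fragile site genes, which break under replication stress, had 2 of 7 high, beside 23.9% of all places, and none low, beside 23.5%, with a median of 0.05. FHIT, the gene of the most fragile site in lymphocytes, had scaled counts of 78.3 in DMSO, 60.0 in H2O, 56.2 in APH and 65.8 in HU, with overlapping groups. DMD, the dystrophin gene, had 131, 121, 151 and 148 in the same order, apart on the high side without passing the test.

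Among cohesin genes, its regulators and CTCF, 1 of 7 was high and 1 low, beside 23.9% and 23.5% of all places, with a median of -0.09. The lowest value was -0.38 at CHTF18/RPUSD1, with overlapping groups. NIPBL, the cohesin loader, was the high one at 47.4 in DMSO, 44.8 in H2O, 52.7 in APH and 50.4 in HU. PDS5B, a subunit that regulates release, was the low one at 44.1, 44.8, 33.4 and 43.2. T cell genes had 1 of 7 low, myeloid and erythroid genes 1 of 4 on each side, HOX clusters 3 of 6 low and 1 high, and ribosomal protein genes 2 of 7 low, with medians of -0.01, 0.10, -0.14 and -0.11. Their members ranged from -0.58 at CD247 to 0.09 at UBASH3A, from -0.18 at CEBPB to 0.34 at EPOR, from -0.54 at HOXB5 to 0.29 at HOXC8 and from -0.46 at ELOA/RPL11 to 0.28 at RPL3.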

How the data were processed

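SMC1 HiChIP of GM12878 cells gave 4 libraries. The submitters' processing notes name bcl2fastq 2.17, MACS3 3.0.1 and hg38; which aligner or loop caller was used is not given in the sources used here. As no list has a header, columns were read from their values. The authors deposited contact counts as whole numbers, none under 12, with no normalization. Another deposited column was taken as the caller's expected count, which the observed count exceeds at least 2-fold, and a further deposited column as the adjusted p-value, below 0.01 throughout. PCR reads carry no stated molecular identifiers, so errors may be too small. Nothing says that the libraries came from repeated cultures.

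Loops were matched by chromosome and both anchor starts. Counts of loops, of anchors with at least 2 loops and of genes with at least 100 counts were tested in edgeR 4.0.16 (R 4.3.3) by quasi-likelihood with library sizes from the 9529 shared loops and adjustment over all features tested. DESeq2 1.42.0 was an alternative. Its dispersion trend rested on 1077 of 9529 loops, since 8452 lay at its lower limit. Other steps used Python 3.11.15, numpy 2.4.6, pandas 2.3.3, scipy 1.17.1 and matplotlib 3.10.9. The edgeR steps were tested on simulated data. Genes came from a RefSeq table of GRCh38.p14, which gives no exons, so a gene means its body.

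Named were the 10 highest and 10 lowest called loops and genes and the 5 and 5 called anchors, or, where fewer passed, the next by unadjusted p with groups apart; the other called loops were added as the remaining calls. From the lists, called members and the highest and lowest were named, and further members were picked after their values were seen. 1 loop and 2 list members that the rule names are not reported here. The members and lists were chosen with earlier results of these data known. Of 48 lymphocyte signalling genes, 47 were in the table.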

Additional observations from a re-analysis of the deposited data

Results flagged for a closer look

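For 3 gene lists the medians of each drug against its own vehicle pointed opposite ways, and the difference between the drugs was not tested. Genes of cohesin and its regulators had a median log2 difference of -0.24 for APH minus DMSO and 0.032 for HU minus H2O over 7 genes. T cell genes had 0.13 and -0.19 over 7 genes, and myeloid and erythroid genes -0.077 and 0.18 over 4. Outside the loops listed in all 4 libraries, 2380 loops were listed with APH and with HU but with neither vehicle, and 849 the other way round; an unlisted loop is not a count of 0, and the APH list is the longest.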

How the results depend on the processing

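Called loops numbered 22 in the reported fit, 0 with DESeq2, 41 with each drug and its own vehicle as a block, 75 with a mean of at least 24 counts, 12 with a quasi-dispersion of at least 1, 5 relative to the expected count, 14 scaled within span classes, 4 scaled by all listed loops, and 19 to 60 when 1 library was left out; TMM gave 29. All 22 kept their direction in each of these but 1, the TSPAN15 loop, at -0.10 relative to the expected count. Called anchors numbered 76, and 0, 177, 121, 36, 6, 53 and 5 under the same settings in that order, 32 with TMM, and 0 to 18 when 1 library was left out. Called genes numbered 11, and 1, 0, 64, 3, 1, 5 and 1, 11 with TMM, 7 with anchors within 5 kb of gene ends, and 0 to 47 when 1 library was left out. The higher minimum left 2977 genes or groups of genes to test in place of 3394, and it also took loops under the minimum out of each sum. The cause of these changes in the number of calls was not tested. Loops apart on the high and low sides numbered 1899 and 2115, and 732 and 3323 scaled by all listed loops, 614 and 655 with a gap of at least 0.25 on the log2 scale, and 1369 and 1256 with a mean of at least 24 counts. The median loop difference of long loops minus that of short loops, -0.26, was -0.19 relative to the expected count and -0.32 to -0.22 when 1 library was left out. With 2 libraries a group and a median of 20 counts per listed loop, a loop that missed the threshold was not shown to be equal between the groups.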
